A study of Populus trichocarpa with 28 samples.

Results

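Of the 41335 genes counted in Populus trichocarpa (black cottonwood), 306 were higher in mature leaves after 24 hours of drought and lower there after 25 days of drought. They were chosen on sense CPM, the sense reads of a gene for every 1e6 sense gene reads of its library. A gene had to average at least 1 CPM over the 8 mature leaf libraries, which 21271 genes did. At 24 hours its drought mean had to be at least 1.5 times the control mean, with both drought libraries above both control libraries. At 25 days its drought mean had to be at most 0.67 of the control mean, with both drought libraries below both control libraries. The mature leaf values below are therefore a description of how the genes were chosen and carry no test.

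The study made strand-specific RNA-seq libraries from greenhouse plants (20 to 35 °C) that had been propagated as cuttings and first watered fully. Drought plants were then given 40% of field capacity, over 24 hours in a short-term experiment or over 25 days in a long-term one, and control plants were kept watered to field capacity. The short-term experiment gave total RNA libraries, depleted of ribosomal RNA, of mature leaves and of apex under drought and under control watering. The labels say only apex, which is read here as the shoot tip. The long-term experiment gave mRNA libraries of mature leaves, apex, young leaves and roots under drought and under control watering, and for roots also total RNA libraries of both. Each of the 14 groups held 2 libraries. Library titles carry numbers, 35 and 69 for drought and 19 and 49 for control at 24 hours, and 64 and 68 for drought and 63 and 70 for control at 25 days. The same numbers return in each tissue, so the tissues may come from the same plants. Whether the 2 libraries within a group are separate plants is not stated in the labels, so the p-values measure the spread between these libraries, which may be technical. Length of drought and library type differ together in the shoot and cannot be told apart.

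Leaves that lose water raise abscisic acid, a hormone that closes stomata, and switch on signalling and protective genes early. Under prolonged water shortage, growth slows, carbon gain falls and older leaves may age and be shed, so an early and a late leaf can differ in which genes respond. Mature leaves export sugars, young leaves and the apex grow and import them, and roots take up water. The gene IDs could not be paired with names, so the genes below are given by ID and by their measured behaviour alone, with no function.

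Sense gene reads per library lay between 20249489 and 67062224. Replicate libraries differed by more than sampling noise in every group (chi-square per degree of freedom 26.5 to 120), so none was a repeated deposit. The tissue labels could be checked through the agreement of whole profiles, as Spearman's rho over genes with the mean control profiles at 25 days. The 24-hour drought mature leaf libraries ranked closest to mature leaf (0.840 and 0.824), as did the 24-hour control mature leaf libraries (0.835 and 0.845). For control leaf library 49, young leaf was almost as close, at 0.844. The control apex libraries at 24 hours were closest to apex (0.876 and 0.880). Drought apex libraries at 24 hours stood apart from their label: library 35 had rho 0.729 with mature leaf and 0.710 with apex, and library 69 had 0.692 and 0.676. Every 24-hour apex result below rests on these libraries. Defining marker genes could not be looked up without names.

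At 24 hours, the CPM of the 306 genes in drought mature leaves was a median of 2.47 times that of control leaves, with quartiles of 1.82 and 4.65 and a range of 1.503 to 253. The ratio was at least 2 for 202 genes and at least 4 for 92. At 25 days it was a median of 0.492, with quartiles of 0.333 and 0.603, and was at most 0.5 for 159 genes and at most 0.25 for 47. Over all 21271 genes the median ratios were 1.05 and 1.004. The 24-hour criterion was met by 3810 genes, 17.9% of those with at least 1 CPM, and the 25-day criterion by 3014 genes, 14.2%. The 306 genes are 8.03% of the first list and 10.2% of the second. For comparison, 610 genes were higher at both times, 16.0% of the 24-hour list and 31.4% of the 1942 genes at least 1.5 times control without overlap at 25 days (9.13% of genes). Another 1492 genes were lower at both times and 195 were lower at 24 hours and higher at 25 days.

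The thresholds cut through a continuous range. The smallest 24-hour ratio among the chosen genes was 1.503, and the nearest gene left out by that threshold had 1.4997. At 25 days the highest ratio inside was 0.6697 and the nearest outside was 0.6734. Without the 25-day control leaf library 70 the rule took 492 genes. Leaving out other single libraries took the count as low as 257.

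**Figure D1:**
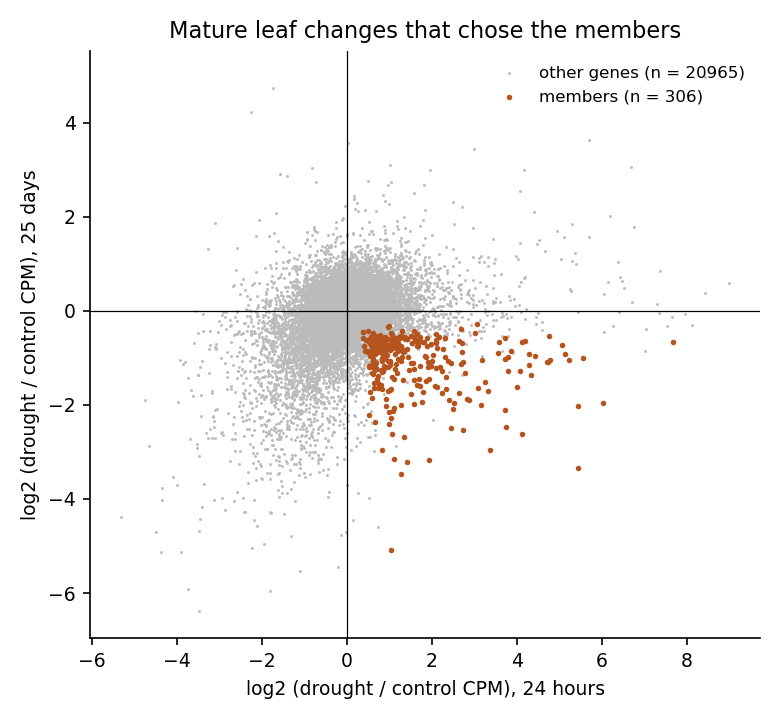
Log2 drought to control ratio of CPM (offset 0.5 CPM) in mature leaves at 24 hours (horizontal) and 25 days (vertical) for the 306 chosen genes and the other genes with at least 1 CPM. The chosen genes fill the lower right part by construction, and 92 of them lie at 4-fold or more at 24 hours.

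The levels crossed between the 2 times. The median level of the genes was 9.28 and 16.0 CPM in the 24-hour drought leaves (libraries 35 and 69), against 4.35 and 3.77 CPM in the 24-hour control leaves. It was 5.21 and 4.65 CPM in the 25-day drought leaves (64 and 68), against 12.2 and 8.18 CPM in the 25-day control leaves. The summed level was 31620 ± 7375 CPM in 24-hour drought leaves and 10386 ± 76.0 CPM in 24-hour control leaves (SD, n = 2 each). At 25 days it was 8531 ± 121 CPM in drought leaves and 20106 ± 1232 CPM in control leaves (SD, n = 2 each). The sum is uneven, since in 24-hour drought leaves the most abundant gene made up 13.0% of it, the first 10 made up 58.0% and the first 50 made up 87.4%. In these bulk samples, fewer cells of a type and less RNA per cell cannot be told apart.

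The control leaves of the 2 experiments also differed. The 306 genes had a median of 10.4 CPM in 25-day control leaves and 4.004 CPM in 24-hour control leaves, a median log2 difference of 1.12, against 0.13 over all 21271 genes. Of the 306, 237 were above and 28 below without overlap, where 41.3% and 30.8% of all genes were. The same comparison of apex controls gave a median log2 of 0.16 for the 306 genes, against -0.03 over all genes. There 128 of the 306 were above and 61 below without overlap, where 37.7% and 42.5% of all genes were. In 25-day roots, which had both library types, mRNA control libraries exceeded total RNA control libraries by a median log2 of 0.22 for the 306 genes and 0.09 for all genes. The median in drought leaves at 25 days was near that in 24-hour control leaves, at 5.09 and 4.004 CPM. The median log2 difference was 0.13, against 0.07 over all genes. Single genes often differed, with 132 above and 100 below without overlap, where 43.3% and 36.6% of all genes were. The median in control leaves at 25 days was near that in 24-hour drought leaves, at 10.4 and 13.2 CPM. The median log2 difference was -0.18, against 0.07 over all genes. Here 81 genes were above and 108 below without overlap, where 38.6% and 34.3% of all genes were. All 4 leaf groups entered the rule, which asks for controls below drought at 24 hours and above drought at 25 days. The excess over all genes is therefore not independent of the choice, although the rule did not compare the 2 sets of controls. Time and library type also differ between the 2 sets, and the part of the rule, of time and of library type was not tested.

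**Figure D2:**
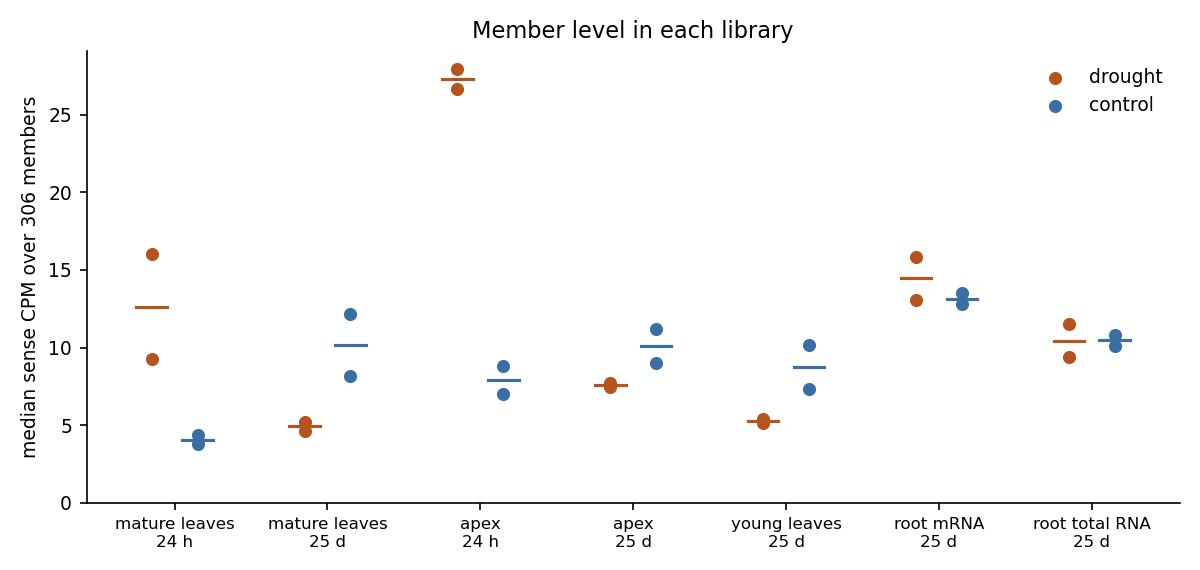
Median sense CPM over the 306 genes in each library (points), with drought to the left of control in each tissue and time and a bar at the mean of the 2 libraries. Drought lies above control in mature leaves and apex at 24 hours and below it in mature leaves, apex and young leaves at 25 days.

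Replicates of the chosen genes spread unequally. In 24-hour drought leaves 240 of the 306 genes were higher in library 69 than in 35, and library 69 over 35 had a median log2 ratio of 0.42, although 12526 of the 21271 genes were higher in library 35. In 25-day control leaves 238 genes were higher in library 63 than in 70, and library 70 over 63 had a median log2 ratio of -0.37, against -0.21 over all genes. Library 63 was also higher than 70 for 235 of the 306 genes in control young leaves and for 226 in 25-day control apex. Over all 21271 genes this held for 16415 and 12597. In 25-day control tissues, 142 of the 306 genes were most abundant in root, 81 in mature leaf, 57 in apex and 26 in young leaf. These are 46.4%, 26.5%, 18.6% and 8.50% of them, against 49.1%, 17.0%, 24.3% and 9.61% of all genes with at least 1 CPM. The 25-day control leaf level was among the values that chose the genes, so nothing is read from the mature leaf share.

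The first gene by the smaller of its absolute log2 leaf changes was Potri.009G037300. It had 148 and 679 CPM in 24-hour drought leaves, against 13.0 and 4.91 CPM in 24-hour control leaves. At 25 days it had 5.48 and 3.60 CPM in drought leaves, against 46.7 and 54.0 CPM in control leaves. No library overlapped the other group at either time, and the 2 drought libraries at 24 hours differed more than 4-fold from each other. The next, Potri.006G108000, had 16.4 and 8.42 CPM in 24-hour drought leaves, against 0.867 and 0.650 CPM in 24-hour control leaves. At 25 days it had 0 reads in both drought leaf libraries, against 37 and 114 reads in the control leaf libraries. Taking 3 reads over the group as the limit that a count of 0 allows, it was at least 56.1-fold lower in the drought leaves. This gene also had 0 reads in all 8 root libraries.

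The apex at 24 hours was not used in the choice, and most of the chosen genes rose there too. The median of the 306 genes was 26.7 and 27.9 CPM in drought apex, against 8.83 and 7.03 CPM in control apex. Of 299 tested, 211 rose with a background of 30.0% of all tested genes and 23 fell with a background of 32.3% (edgeR's quasi-likelihood test with Benjamini-Hochberg adjustment over all genes tested, adjusted p under 0.05). Their median log2 change was 1.55, against 0.00 over all genes tested. Without overlap, 238 were above and 37 below control, where 43.2% and 40.6% of tested genes were. Among the genes that met the 24-hour criterion and not the 25-day one, 2227 of 3470 rose, with a median log2 change of 0.84. Among those that met only the 25-day criterion, 472 of 2630 rose, 1327 fell and the median was -0.67. Without drought library 35, 225 of 300 of the chosen genes were called in either direction, with 63.1% of all tested genes called, and without drought library 69, 224 of 299, with 61.1%.

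The rise in apex was greater for genes with greater leaf ratios at 24 hours. Of the genes with a leaf ratio of 4 or more, 73 of 91 rose in apex and 4 fell, with a median log2 change of 3.06. With a ratio of 2 to 4, 81 of 107 rose and 7 fell, with a median of 1.69. With a ratio under 2, 57 of 101 rose and 12 fell, with a median of 0.77. The tissues may share plants, so this order describes these libraries.

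The largest rise among called genes was that of Potri.006G127900. It had 48.1 and 40.9 CPM in 24-hour drought apex, against 0.333 and 0.0509 CPM in 24-hour control apex. Its log2 change was 7.62 (SE 0.45, adjusted p 8.10e-05, edgeR), with the low control level resting on 20 and 2 reads. In mature leaves it had 3.85 and 5.50 CPM in 24-hour drought, against 0.805 and 0.554 CPM in control, again without overlap. The largest fall was that of Potri.013G066500, with 0.673 and 0.960 CPM in drought apex, against 26.5 and 42.4 CPM in control apex. Its log2 change was -5.44 (SE 0.33, adjusted p 6.96e-05, edgeR), while its leaf level at 24 hours was 3.46 and 1.98 CPM in drought, against 0.960 and 0.819 CPM in control. Drought was thus below control in apex and above it in leaf for this gene, and the difference between the tissues was not tested. Potri.009G037300 had 1184 and 1497 CPM in drought apex, against 83.9 and 25.7 CPM in control apex, a log2 change of 4.56 (SE 0.62, adjusted p 0.00186, edgeR).

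At 25 days the apex response of the same genes was small and mostly negative. Their median was 7.72 and 7.48 CPM in drought apex, against 11.2 and 9.02 CPM in control apex. Of 283 tested, 1 fell (background 0.136%) and 0 rose (background 0.0279%) by edgeR's adjusted p, and at an unadjusted p under 0.05, 84 were lower (background 7.14%) and 7 higher (background 4.21%). DESeq2 called 22, of which 19 fell, with 2.09% of all tested genes called. The median log2 change was -0.24, against 0.01 over all genes, and 210 of the 283 were negative. Without overlap, 141 were below and 25 above control, where 25.5% and 16.2% of tested genes were. Without control library 70, edgeR called 23 of 286 of the chosen genes and 1.71% of all tested genes.

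The 1 gene called was Potri.001G192600. It had 11.6 and 16.0 CPM in 25-day drought apex, against 92.4 and 70.4 CPM in 25-day control apex. Its log2 change was -2.52 (SE 0.20, adjusted p 0.0118, edgeR), and the adjusted p was 0.114 with a dispersion fitted over all 25-day mRNA libraries. At 24 hours it moved the other way, with 82.8 and 124 CPM in drought apex, against 2.06 and 0.713 CPM in control apex. In roots it had 1.01 and 4.31 CPM in drought, against 0.908 and 0.545 CPM in control, an uncalled log2 change of 2.04.

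The apex responses at the 2 times were compared in one fit, as the drought change at 24 hours minus that at 25 days. Of 299 genes tested, 195 had a positive difference (background 21.9%) and 20 a negative one (background 26.3%) by edgeR's adjusted p. The median difference was 1.87 on the log2 scale, against -0.02 over all genes. It sets total RNA at 24 hours against mRNA at 25 days, and their part in it was not tested. The largest positive difference was that of Potri.014G124500, at 8.86 (SE 0.53, adjusted p 7.16e-06, edgeR). Its level at 24 hours was 66.8 and 106 CPM in drought apex, against 0.633 and 0.331 CPM in control apex. At 25 days it was 1.08 and 0.731 CPM in drought apex, against 3.36 and 2.03 CPM in control apex.

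Young leaves at 25 days were also not used in the choice. They carry the title numbers of the mature leaf libraries that were used and may share their plants, so the counts here describe these libraries. Among the chosen genes, falls outnumbered rises. Their median was 5.40 and 5.12 CPM in drought young leaves, against 10.1 and 7.36 CPM in control young leaves. Of 300 tested, 87 fell (background 6.82%) and 7 rose (background 4.62%) by edgeR's adjusted p, with a median log2 change of -0.52 against 0.00 over all genes. Without overlap, 193 were below and 25 above, where 29.5% and 23.5% of tested genes were. Genes that met only the 25-day leaf criterion fell in 822 of 2695 cases with a median of -0.59, and of 3467 that met only the 24-hour criterion, 43 fell and 432 rose. The share falling was greatest among the genes with the lowest leaf ratio. With a 25-day leaf ratio of 0.25 or less, 21 of 43 fell and 1 rose, with a median of -1.50. Of those at 0.25 to 0.5, 44 of 111 fell and 0 rose, and above 0.5, 22 of 146 fell and 6 rose.

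The largest rise among the called genes in young leaves was that of Potri.014G126000, with 29.8 and 19.1 CPM in drought young leaves, against 0.314 and 0.518 CPM in control young leaves. The log2 change was 5.88 (SE 0.38, adjusted p 0.00119, edgeR), opposite to the direction that chose it in 25-day mature leaves. There it had 37.8 and 31.1 CPM in drought leaves, against 49.7 and 53.8 CPM in control leaves, near the threshold of 0.67. The largest fall was that of Potri.008G212300, with 3.44 and 6.24 CPM in drought young leaves, against 77.9 and 44.3 CPM in control young leaves. Its log2 change was -3.59 (SE 0.33, adjusted p 0.00343, edgeR). Its highest level was in apex, at 1028 and 308 CPM in 24-hour drought apex, against 2362 and 3161 CPM in 24-hour control apex. At 24 hours in mature leaves its lower drought library, 3.94 CPM, was just above its higher control library, 3.93 CPM.

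**Figure D3:**
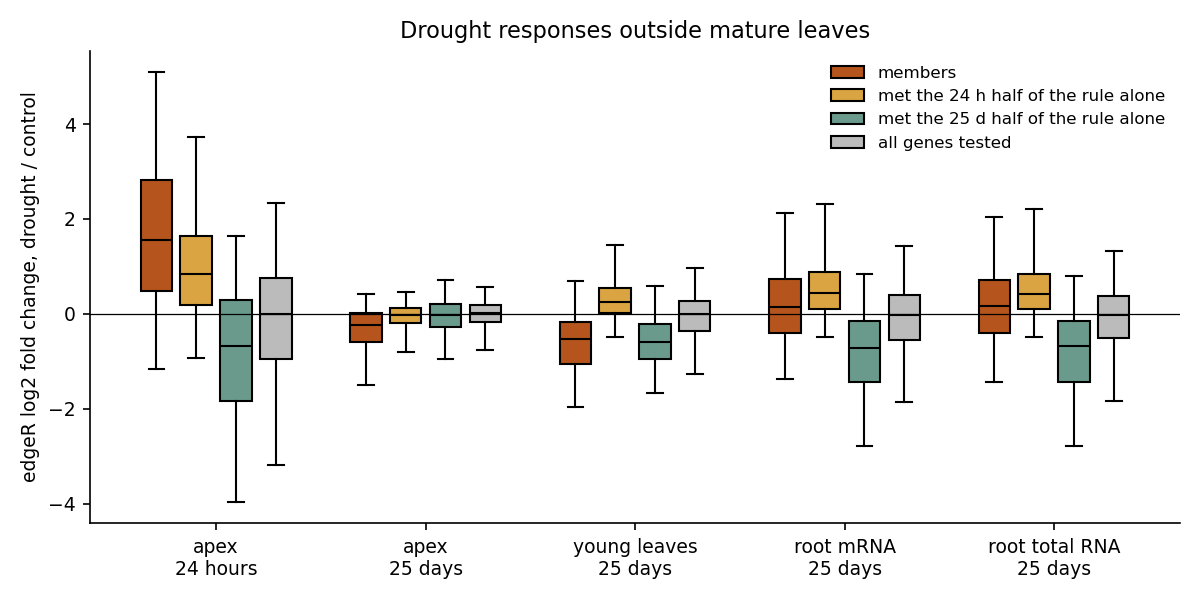
edgeR log2 fold change, drought over control, in the 5 comparisons outside mature leaves for the 306 genes, the genes that met only the 24-hour or only the 25-day leaf criterion, and all genes tested. Boxes span the quartiles with a line at the median, and whiskers the central 90% of genes. The chosen genes lie above the other sets in apex at 24 hours, follow the 25-day set in young leaves and straddle 0 in roots.

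Roots at 25 days held no single direction. In root mRNA libraries the median of the 306 genes was 15.8 and 13.1 CPM in drought, against 13.5 and 12.8 CPM in control. Of 281 tested, 64 rose (background 12.7%) and 37 fell (background 14.7%) by edgeR's adjusted p, with a median log2 change of 0.13. Of 3445 genes that met only the 24-hour leaf criterion, 1310 rose and 94 fell in root mRNA. Of 2513 that met only the 25-day criterion, 108 rose and 1060 fell. Without overlap, 103 were above and 95 below, where 24.8% and 47.6% of tested genes were. In root total RNA, 63 of 279 rose (background 12.1%) and 32 fell (background 14.3%), and 105 were above and 94 below without overlap (25.7% and 45.8%). The 2 library types carry the same title numbers, and 0 genes were called in opposite directions by them. Of 278 tested in both, 57 rose in both (background 10.3%) and 29 fell in both (background 12.1%). With all libraries, 101 of the chosen genes were called in root mRNA and 95 in root total RNA, with 27.4% and 26.4% of all tested genes called. Without control library 63, the counts were 29 and 42, with 6.85% and 8.58% of all tested genes called. Without control library 70, they were 21 and 31, with 4.17% and 6.28%.

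The largest root rise in mRNA was that of Potri.003G038500, with 2014 and 4559 CPM in drought roots, against 171 and 298 CPM in control roots. The log2 change was 3.98 (SE 0.54, adjusted p 0.0121, edgeR), and the adjusted p was 0.0548 without control library 63 and 0.0518 without control library 70. In young leaves it had 1271 and 1214 CPM in drought, against 428 and 517 CPM in control, a log2 change of 1.41 (SE 0.29, adjusted p 0.0220, edgeR). That call was lost without drought library 64 (adjusted p 0.0945, edgeR), and in mature leaves at 25 days the gene was lower by the rule, with 1107 and 1194 CPM in drought against 1762 and 2688 CPM in control. The largest fall, in both root library types, was that of Potri.T093600. It had 4.56 and 3.98 CPM in drought root mRNA, against 81.5 and 82.1 CPM in control root mRNA, a log2 change of -4.09 (SE 0.13, adjusted p 0.00526, edgeR). The largest rise in root total RNA was that of Potri.T137100, with 1.04 and 0.880 CPM in drought, against 0.0171 and 0.0713 CPM in control, a log2 change of 4.53 (SE 0.60, adjusted p 0.0119, edgeR). Its control level rests on 1 and 4 reads. In mature leaves at 24 hours it had 46 and 416 reads in drought, against 2 and 0 reads in control. That contrast was used to choose the gene, and its drought libraries differ widely.

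Over the comparisons together, 55 of 293 genes tested in both rose in apex at 24 hours and fell in young leaves at 25 days, 18.8% of them, against 165 of 23913 genes tested in both (0.690%). Rising in both happened for 4 genes (1.37%), against 2.67% of tested genes. Falling in young leaves and rising in root mRNA happened for 9 of 276 (background 0.201%), and falling in both for 18 (background 3.01%). The tissues may share plants with the mature leaves that chose the genes, so these joint counts describe these libraries. Of the 306 genes, 44 (14.4%) were called in none of the 5 comparisons outside mature leaves, against 28.3% of the 21271 genes with at least 1 CPM.

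**Figure D4:**
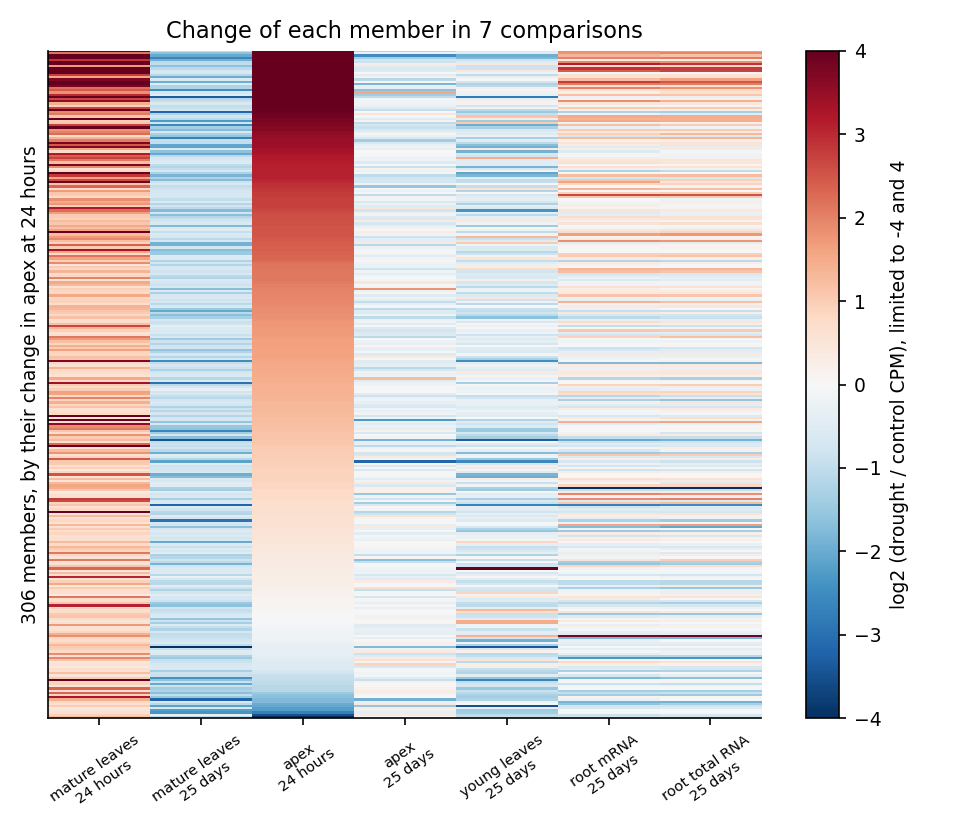
Log2 drought to control ratio of CPM (offset 0.5 CPM) of the 306 genes in 7 comparisons, one row per gene, ordered by the change in apex at 24 hours, with red for higher and blue for lower in drought. The 2 mature leaf columns were used to choose the genes. The apex column at 24 hours is red for most genes, and the young leaf column is mostly blue.

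**Figure D5:**
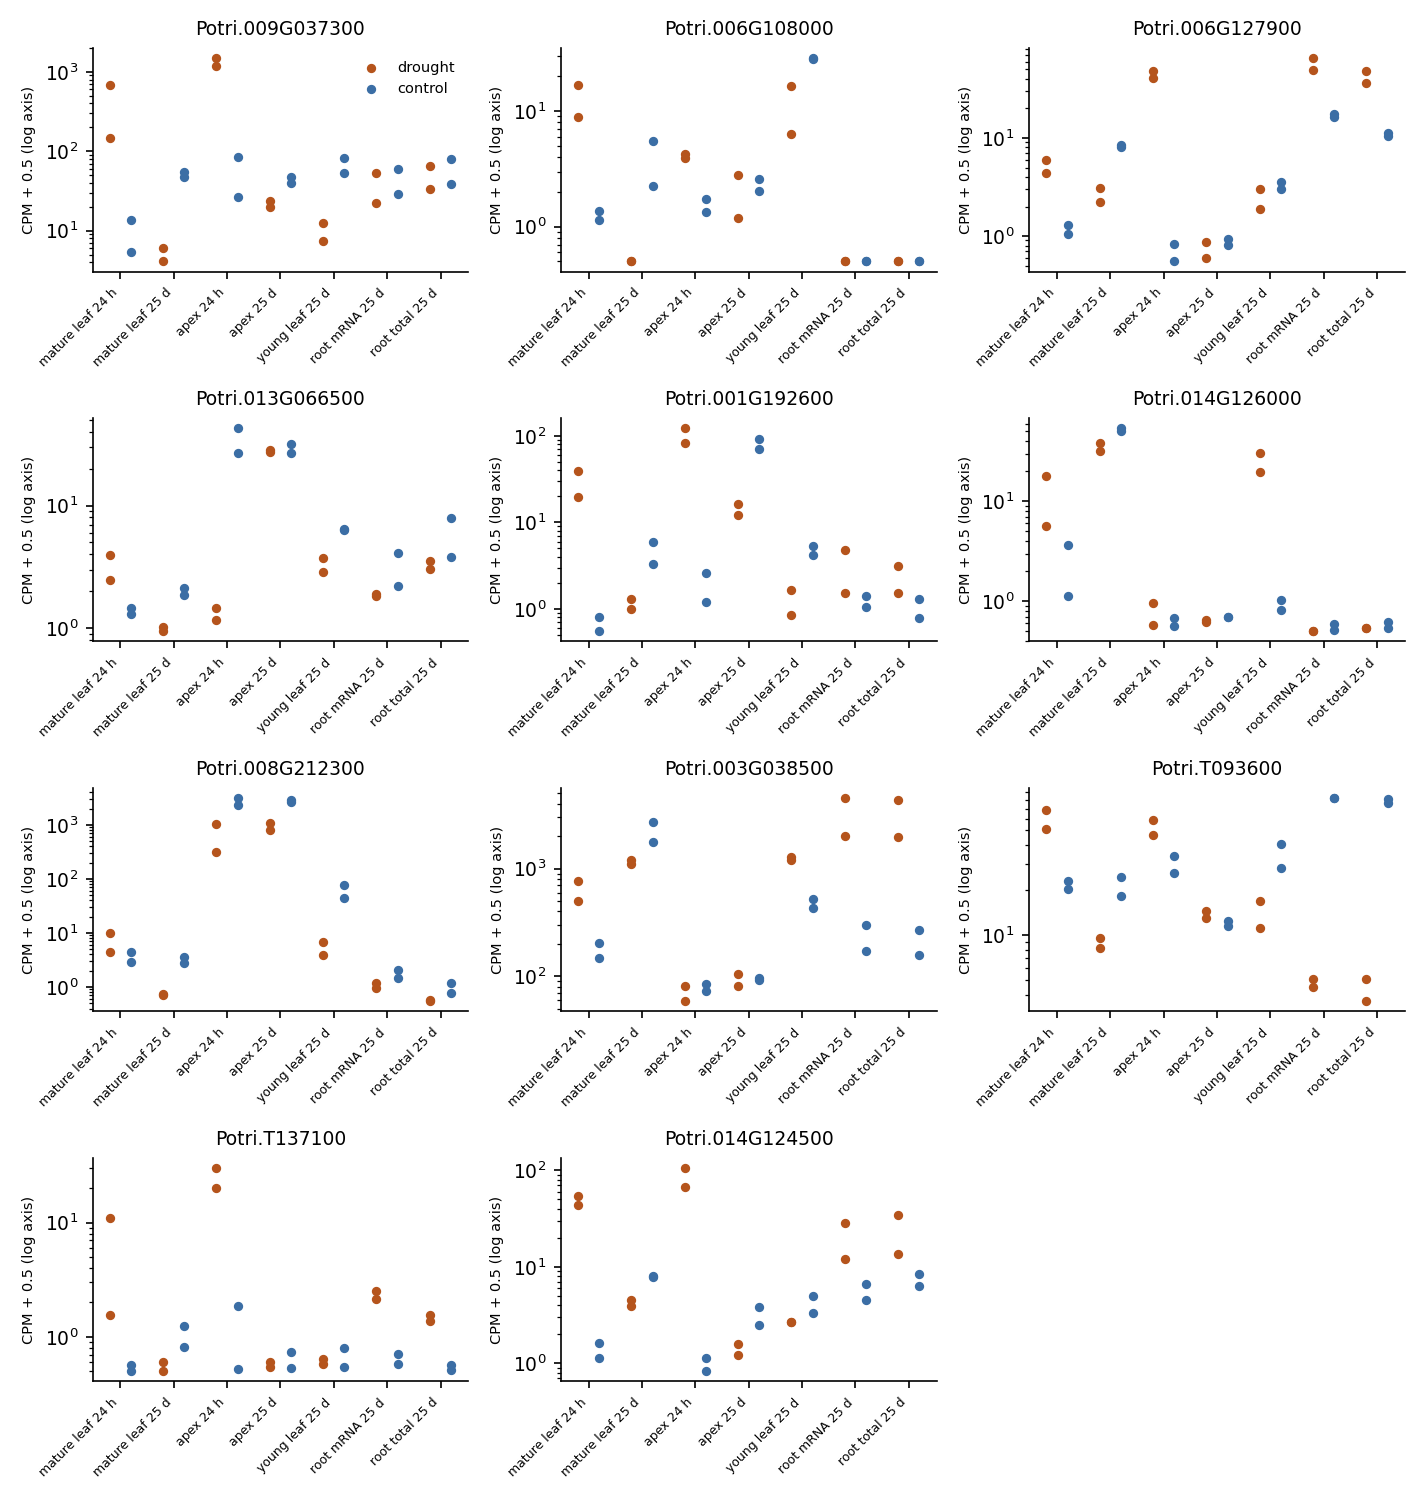
CPM plus 0.5 on a log axis of the 11 named genes in every library, drought to the left of control in each tissue and time. Potri.009G037300, Potri.001G192600 and Potri.014G124500 are high in 24-hour drought apex and leaf, and Potri.013G066500 is low in 24-hour drought apex.

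Reads from introns and from the antisense strand were counted apart from the sense gene reads. Of the 306 genes, 259 had an intron entry of their own, 2 shared a joined entry and 45 had none. Their intron sense reads came to 806 and 865 CPM in 24-hour drought leaves, against 242 and 198 CPM in 24-hour control leaves. At 25 days they were 102 and 108 CPM in drought leaves, against 202 and 200 CPM in control leaves. Gene by gene, of the 179 with 20 reads or more at 24 hours, 121 were above and 2 below control without overlap, with a background of 20.3% and 27.1%. At 25 days 0 of 92 were above and 64 below, with a background of 27.6% and 16.3%. These are the contrasts that chose the genes. In 24-hour apex, intron reads of 190 of 217 genes were above and 12 below, with a background of 71.6% and 11.8%, so most introns were above in drought apex. In 25-day apex 8 of 93 were above and 36 below, with a background of 14.9% and 19.7%. In 25-day young leaves 15 of 89 were above and 30 below, with a background of 29.7% and 10.9%, where all genes went mostly the other way.

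Antisense reads of the genes came to 93.0 and 74.5 CPM in 24-hour drought leaves, against 73.7 and 72.0 CPM in 24-hour control leaves. Per 100 sense reads they were 0.352 and 0.202 in drought and 0.706 and 0.697 in control. At 25 days they were 86.1 and 101 CPM in drought leaves, against 122 and 133 CPM in control leaves, and 0.9996 and 1.20 per 100 sense reads in drought, against 0.581 and 0.693 in control. The rule set the direction of the sense reads at both times, so nothing is read from the values per 100 sense reads. Over all genes with at least 1 CPM these were 2.47 and 2.46 in 24-hour drought leaves, against 3.85 and 2.51 in control. At 25 days they were 6.58 and 1.75 in drought leaves, against 3.08 and 4.05 in control. In 24-hour apex, 53 of 77 chosen genes with 20 antisense reads or more were above control and 12 below, with a background of 50.1% and 20.4%. Antisense exceeded sense in 4 of the chosen genes over the mature leaf libraries. The same count was not made for other genes, so whether 4 is many or few is not known.

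The IDs hold a chromosome number and an order along it. Of the genes with at least 1 CPM, the chosen ones made up between 0.649% (chromosome 7) and 2.26% (chromosome 16), and 3.84% (16 of 417) of those on unplaced scaffolds. The chosen genes formed 5 pairs with neighbouring IDs and 21 pairs at most 5 IDs apart. No such count was made for other genes, so nothing about clustering is read from these numbers. Neighbouring or near-identical genes could share reads, so pairs of this kind are uncertain.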

How the data were processed

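Listed in the submitters' processing notes, without a stated role, are DESeq2, HTSeq 0.6.0 and TopHat2 2.1.0. Genome build, annotation and counting options are not given in the sources used here. Root files carry the word merged, and what was merged is not stated. The files hold raw counts as deposited by the authors: sense and antisense reads for 41335 genes and for gene introns, with no normalization. Summary lines without a gene ID were found in 20 sense gene files (2.43% to 12.4% of reads in no gene, 0.0520% to 2.91% ambiguous) and stayed out of totals and tests. Python 3.11.15 (numpy 2.4.6, pandas 2.3.3, scipy 1.17.1, matplotlib 3.10.9) computed CPM. In R 4.3.3, edgeR 4.0.16 fitted each comparison with its 4 libraries (TMM, filterByExpr, robust quasi-likelihood test, Benjamini-Hochberg over all genes tested, threshold 0.05). The comparison of apex responses used all 8 apex libraries. Per-gene log2 ratios outside edgeR use an offset of 0.5 CPM, or 0.02 CPM for intron and antisense reads, where a gene needed 20 reads.

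None of the 41335 IDs matched the reference table of 34621 genes of assembly P.trichocarpa_v4.1, so lists and markers by product name gave no result, and no sequence is shown. The members and lists were chosen with earlier results of these data known. Named genes follow the fixed rule: the first 2 by the smaller of their absolute log2 leaf changes, and in each comparison outside mature leaves the called gene with the largest rise and the one with the largest fall.

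Alternatives were DESeq2 1.42.0, DESeq2 size factors, no low-count filter, dispersion shared over groups, leaving out each library, other fold and level thresholds and other totals for scaling. On data simulated from these counts, genes changed 4-fold were called in 89% to 97% and those changed 2-fold in 11% to 55% of cases. The simulation gave all genes of a comparison the same dispersion. Real genes differ in theirs, so these shares may not hold for the real fits. In 25-day apex, a chosen gene with a log2 change of -3.20 was not called. The floor of 3 counts covers counting error only.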

Additional observations from a re-analysis of the deposited data

Results flagged for a closer look

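The apex responses at 24 hours and 25 days differed in 215 of the 299 genes tested by edgeR's test of the difference itself, 195 in one direction and 20 in the other, where 48.2% of all tested genes were called. The log2 difference, 24 hours minus 25 days, was 5.55 for Potri.009G037300, 1.98 for Potri.006G108000 and 8.14 for Potri.006G127900. It was -5.42 for Potri.013G066500, 8.62 for Potri.001G192600 and 8.86 for Potri.014G124500. Leaving out single libraries or changing the tool, Potri.006G108000 was called in 8 of 12 alternatives, and the others in all 12.

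At 25 days some named genes had changes of opposite sign in different tissues, with both drought libraries on one side of both control libraries in each. The differences between tissues were not tested, and several of the changes did not pass edgeR's adjusted p themselves. Potri.006G127900 had a log2 change of -0.51 in young leaves (edgeR adjusted p 0.419) and 1.97 in root mRNA (edgeR adjusted p 0.00715). In young leaves its higher drought library, 2.500 CPM, was only just below its lower control library, 2.509 CPM. Potri.001G192600 had -2.52 in apex (adjusted p 0.0118), -2.53 in young leaves (0.0179) and 2.04 in root mRNA (0.106). Potri.T093600 had 0.26 in apex (adjusted p 0.581), -1.28 in young leaves (0.0158) and -4.09 in root mRNA (0.00526). Potri.014G124500 had -1.51 in apex (adjusted p 0.191), -0.69 in young leaves (0.132) and 2.12 in root mRNA (0.0358).

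Reads antisense to the introns of the genes, which no comparison above uses, were above control in both drought libraries of 2 comparisons. They averaged 282.8 CPM in 25-day drought apex and 233.9 CPM in 25-day control apex. They averaged 70.6 CPM in 24-hour drought leaves and 60.6 CPM in 24-hour control leaves. In roots at 25 days they were below control in both library types, at 464 and 505 CPM in drought root mRNA against 672 and 669 CPM in control root mRNA, and at 215 and 185 CPM in drought root total RNA against 256 and 260 CPM in control root total RNA. In the other comparisons the groups overlapped. None of these differences was tested. In 25-day apex, all introns together had 116008 and 103352 antisense reads in drought, at 24097247 and 20531478 sense gene reads. Control apex had 99960 and 130731, at 25616813 and 29589429 sense gene reads. Relative to sense reads, all introns were thus also above control in both drought libraries. No such background was computed for the other comparisons, so nothing particular to the chosen genes is read here.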

How the results depend on the processing

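No paired analysis was possible because drought and control libraries of a comparison share no title numbers. The number of chosen genes was 120 with folds of 2 and 0.5, 584 with no minimum level, and 257 to 492 when single libraries were left out. In 25-day apex, 1 gene was called, 9 without the low-count filter, 22 with DESeq2, 2 with shared dispersion, and 1 to 23 without single libraries. Without single libraries, called genes ranged over 203 to 225 in 24-hour apex, 74 to 83 in young leaves, 21 to 113 in root mRNA, 31 to 100 in root total RNA and 190 to 214 for the difference of the apex responses; root total RNA called 61 without drought library 68. The summed antisense log2 change in leaves was 0.20 at 24 hours, 0.40 scaled by antisense totals and 0.034 to 0.35 without single libraries, and -0.57 to -0.34 at 25 days. The summed intron change was 1.93 at 24 hours, 2.17 by intron totals and 1.79 to 2.08 without single libraries; at 25 days it was -0.94, -1.06 and -0.98 to -0.90. Without drought library 68, the median log2 change of the chosen genes in 25-day apex was -0.20. Uncalled changes of named genes could cross 0, as for Potri.009G037300 in root mRNA (-0.76 to 0.54). With 2 libraries a group, 2-fold changes were often not called in simulated data, so a gene not called may still differ.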
